A study of Mus musculus with 24 samples.

Results

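Interferon regulatory factors (IRF) and signal transducers and activators of transcription (STAT) are 2 families of DNA-binding proteins that carry interferon and cytokine signals into the nucleus. Described here are 9 of their genes, Irf1, Irf2, Irf3, Irf5, Irf7, Irf8, Irf9, Stat2 and Stat3, which were taken by symbol and were present among the 15667 genes listed for uninjected hearts and the 15327 listed for injected hearts. RNA came from hearts of mice at postnatal day 7.5, from the apex by the labels and from the ventricles by the study's methods. Uninjected hearts were Xinβ KO or WT. Xinβ KO is a germline deletion in which a LacZ-Neo cassette replaced a stretch across neighbouring exons of Xirp2, the gene of the intercalated disc protein Xinβ, on a C57BL6 background, so every cell type carried it. The injected hearts, Xinβ KO or littermate controls, received AAV9 at postnatal day 1 carrying either GFP or human YAP S127A, a form of YAP that the Hippo pathway cannot inhibit through that serine, and both transgenes were driven by the cardiac troponin T promoter, which limits them to cardiomyocytes. The 4 injected groups are called WT/GFP, Xinβ KO/GFP, WT/YAP and Xinβ KO/YAP. Each of the 6 groups held 4 libraries, and the labels do not state that each library came from its own mouse, so p-values measure the spread between libraries.

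IRF proteins bind GAAA repeats in the regulatory DNA of interferon-stimulated genes. Type I interferon activates the kinases JAK1 and TYK2, and phosphorylated STAT2 takes part with IRF9 in ISGF3, the factor that switches on most of these genes, Irf7, Irf9 and Stat2 among them. IRF3 is made in most cells and starts the interferon response after viral or self nucleic acid is sensed, IRF7 amplifies it, IRF1 acts downstream of interferon gamma, IRF2 competes with IRF1, and IRF5 and IRF8 serve mainly in myeloid cells. STAT3 is the main factor downstream of cytokines that use the gp130 receptor, such as interleukin-6, oncostatin M and leukemia inhibitory factor, and it is known in the heart for its part in the response to injury.

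The labels were checked first. Xirp2 ranged from 106 to 168 CPM in uninjected WT, from 99.0 to 149 with GFP and from 56.0 to 93.8 with YAP S127A in WT libraries, and did not exceed 0.972 CPM in any of the 12 Xinβ KO libraries (CPM are reads per gene scaled to library size). The 10 cardiomyocyte markers summed to between 57835 and 99073 CPM in all 24 libraries, and none of the 10 was missing from either table. The mouse gene Yap1 was at 80.9 to 92.6 CPM in the 8 YAP libraries and at 83.7 to 93.6 in the 8 GFP libraries, so these values do not report the human transgene. Ddx3y, a gene of the Y chromosome, was at 39.5 to 49.6 CPM in all 4 uninjected WT libraries and at 21.7, 46.0, 56.2 and 3.68 CPM in the uninjected Xinβ KO replicates, so the sexes were not balanced between these groups. In the injected groups Ddx3y was under 1 CPM in 1 WT/GFP, 1 Xinβ KO/GFP and 2 Xinβ KO/YAP libraries and at least 8.61 CPM in the others. The 3 members called between the uninjected groups were called with Ddx3y as a covariate too (limma adjusted p = 0.0037 for Irf7, 0.022 for Irf9 and 0.024 for Stat2). Depth was 20490875 to 31154155 reads on listed genes in the uninjected and 15015038 to 19444404 in the injected libraries, which gave Irf7, a low gene, 65 to 306 and 25 to 167 reads, and Stat3, the most abundant member per length, 3097 to 6770 and 1446 to 3369. Uninjected libraries were read as 50 bp single ends and injected ones as 150 bp paired ends, and the tables were normalized separately, so tests were made only within a table.

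The genes lie on 6 chromosomes of GRCm38. By the GENCODE M21 annotation Irf1 spans chr11:53770014-53778374, Irf2 chr8:46739732-46847458, Irf3 chr7:44997648-45002848, Irf5 chr6:29526625-29541871, Irf8 chr8:120736358-120756694, Irf9 chr14:55603571-55610030 and Stat2 chr10:128270559-128292849, all on the plus strand, and Irf7 chr7:141262706-141266481 and Stat3 chr11:100885098-100939540 on the minus strand. Each value is an estimate of the reads of a gene, made from the coverage of its transcripts. The protein-coding gene Gm20388, which was not among the listed genes, overlaps Irf8 on the same strand. Of the listed genes, Rnf31 overlaps Irf9 on the same strand, and Bcl2l12, Tnpo3, Phrf1 and Stat5a overlap Irf3, Irf5, Irf7 and Stat3 on the opposite strand. The libraries kept strand, but whether the counting used it is not given in the sources used here. None of these 5 neighbours was called in the genotype comparisons or between Xinβ KO/YAP and Xinβ KO/GFP (log2 fold changes between -0.24 for Rnf31 and 0.29 for Stat5a, limma).

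The sequences around the starts of these genes show where the letters that both families read could be found. RefSeq (GRCm38.p6) gave 12 windows for the 9 genes, each from 250 bases before a start to 50 bases after it. They were searched on both strands for a pair of GAAA copies with any 2 bases between them, the repeat read by IRF proteins and ISGF3, and for TTCNNNGAA, the palindrome read by STAT dimers. The former was in 3.44% and the latter in 8.3% of all 32851 windows in the reference table. Windows are printed 5′ to 3′ on the strand of the gene, with motif matches in capitals. The windows of Irf7, Irf9 and Stat2 are shown because these are the members that rose in uninjected Xinβ KO hearts, and those of Irf1, Irf2 and Irf8 because they hold the remaining matches. Irf7 (chr7:141266375-141266674, minus strand) and the upstream start of Irf9 (chr14:55603735-55604034, plus strand) held neither motif.
Irf7: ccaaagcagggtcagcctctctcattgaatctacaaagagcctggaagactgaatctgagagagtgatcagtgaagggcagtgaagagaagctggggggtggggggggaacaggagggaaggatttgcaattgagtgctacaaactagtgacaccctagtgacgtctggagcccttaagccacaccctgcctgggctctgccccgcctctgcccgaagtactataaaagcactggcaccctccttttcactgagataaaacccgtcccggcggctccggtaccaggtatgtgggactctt
Irf9: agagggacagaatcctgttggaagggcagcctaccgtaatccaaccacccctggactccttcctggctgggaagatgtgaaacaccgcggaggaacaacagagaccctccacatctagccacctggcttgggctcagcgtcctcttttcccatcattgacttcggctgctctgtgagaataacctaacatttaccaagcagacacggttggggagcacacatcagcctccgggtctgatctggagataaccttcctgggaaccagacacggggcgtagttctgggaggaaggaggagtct
Stat2: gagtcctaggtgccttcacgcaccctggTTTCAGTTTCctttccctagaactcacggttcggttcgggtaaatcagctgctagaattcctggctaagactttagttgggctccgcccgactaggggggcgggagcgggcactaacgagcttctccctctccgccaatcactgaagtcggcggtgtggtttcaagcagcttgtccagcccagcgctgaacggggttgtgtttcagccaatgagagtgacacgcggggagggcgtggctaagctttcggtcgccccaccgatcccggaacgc
Irf1: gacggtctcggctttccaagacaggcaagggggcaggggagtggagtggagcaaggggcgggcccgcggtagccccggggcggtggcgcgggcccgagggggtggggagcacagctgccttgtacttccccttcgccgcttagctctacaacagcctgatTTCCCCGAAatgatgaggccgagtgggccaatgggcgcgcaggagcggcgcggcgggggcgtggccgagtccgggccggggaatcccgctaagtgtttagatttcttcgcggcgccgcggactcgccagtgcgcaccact
Irf2: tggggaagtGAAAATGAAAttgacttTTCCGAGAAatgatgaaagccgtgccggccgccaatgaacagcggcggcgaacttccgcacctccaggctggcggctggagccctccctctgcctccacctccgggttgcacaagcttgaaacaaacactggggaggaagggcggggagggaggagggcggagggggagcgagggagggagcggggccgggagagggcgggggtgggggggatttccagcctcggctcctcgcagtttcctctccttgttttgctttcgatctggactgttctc
Irf8: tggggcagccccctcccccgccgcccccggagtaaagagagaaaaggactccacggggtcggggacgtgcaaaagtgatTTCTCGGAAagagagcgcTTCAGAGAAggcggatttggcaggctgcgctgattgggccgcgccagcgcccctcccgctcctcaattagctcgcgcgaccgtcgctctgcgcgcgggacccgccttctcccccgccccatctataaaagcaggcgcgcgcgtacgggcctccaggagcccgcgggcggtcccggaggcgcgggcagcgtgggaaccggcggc
The Stat2 window (chr10:128270248-128270547) held the IRF repeat as its reverse complement, TTTCAGTTTC, from base -222 to -213 with the start counted as 0. The Irf1 window (chr11:53769764-53770063) held TTCCCCGAA at -90 to -82. The Irf2 window (chr8:46739495-46739794) held both motifs, GAAAATGAAA at -241 to -232 and TTCCGAGAA at -224 to -216, and the upstream Irf8 window (chr8:120736108-120736407) held TTCTCGGAA at -171 to -163 and TTCAGAGAA at -153 to -145. These 4 genes are all on the plus strand. In all, 2 members held the IRF repeat and 3 the STAT palindrome, against 3.99% and 9.55% of all 27025 genes with a window, and no matches overlapped. A match describes the letters only, and its absence says nothing of binding outside the window.

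**Figure D1:**
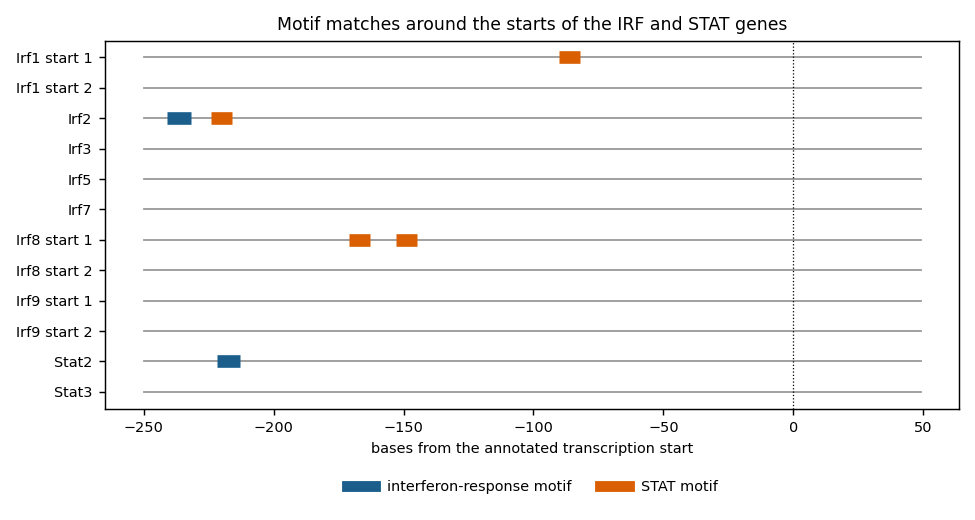
Positions of the motif matches in the 12 windows of the 9 genes, in bases from the annotated transcription start (x axis), with 1 line for each start (y axis). Matches of the interferon-response motif (blue) lie in Irf2 and Stat2, and matches of the STAT motif (orange) in Irf1, Irf2 and Irf8.

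Per kilobase of exon, Stat3 was the most abundant of the 9 genes in every group, at 14.5 CPM per kb in uninjected WT and 23.2 in uninjected Xinβ KO hearts, and at 10.9 to 17.1 in the injected groups. Irf3, made in most cells, followed at 8.11 and 8.19 CPM per kb in the uninjected groups and at 7.73 to 8.91 in 3 of the injected ones, while in WT/GFP Irf1 (7.62) came before Irf3 (7.14). Without WT/GFP replicate 1 Irf1 was at 5.22 and Irf3 at 6.95 CPM per kb. Irf5 was the least abundant in uninjected hearts, at 0.608 and 0.605 CPM per kb. Irf7 was the least abundant in the injected groups, at 0.614 to 1.64 CPM per kb. Between the uninjected groups Irf9 moved from the fourth to the third place, Stat2 from the sixth to the fifth and Irf7 from the eighth to the seventh, on the per-length scale. Irf5 had means of 1.77 and 1.76 CPM in the uninjected groups against 6.29 to 8.09 CPM in the injected groups, a gap that injection, read type and normalization share and whose source cannot be told apart.

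**Figure D2:**
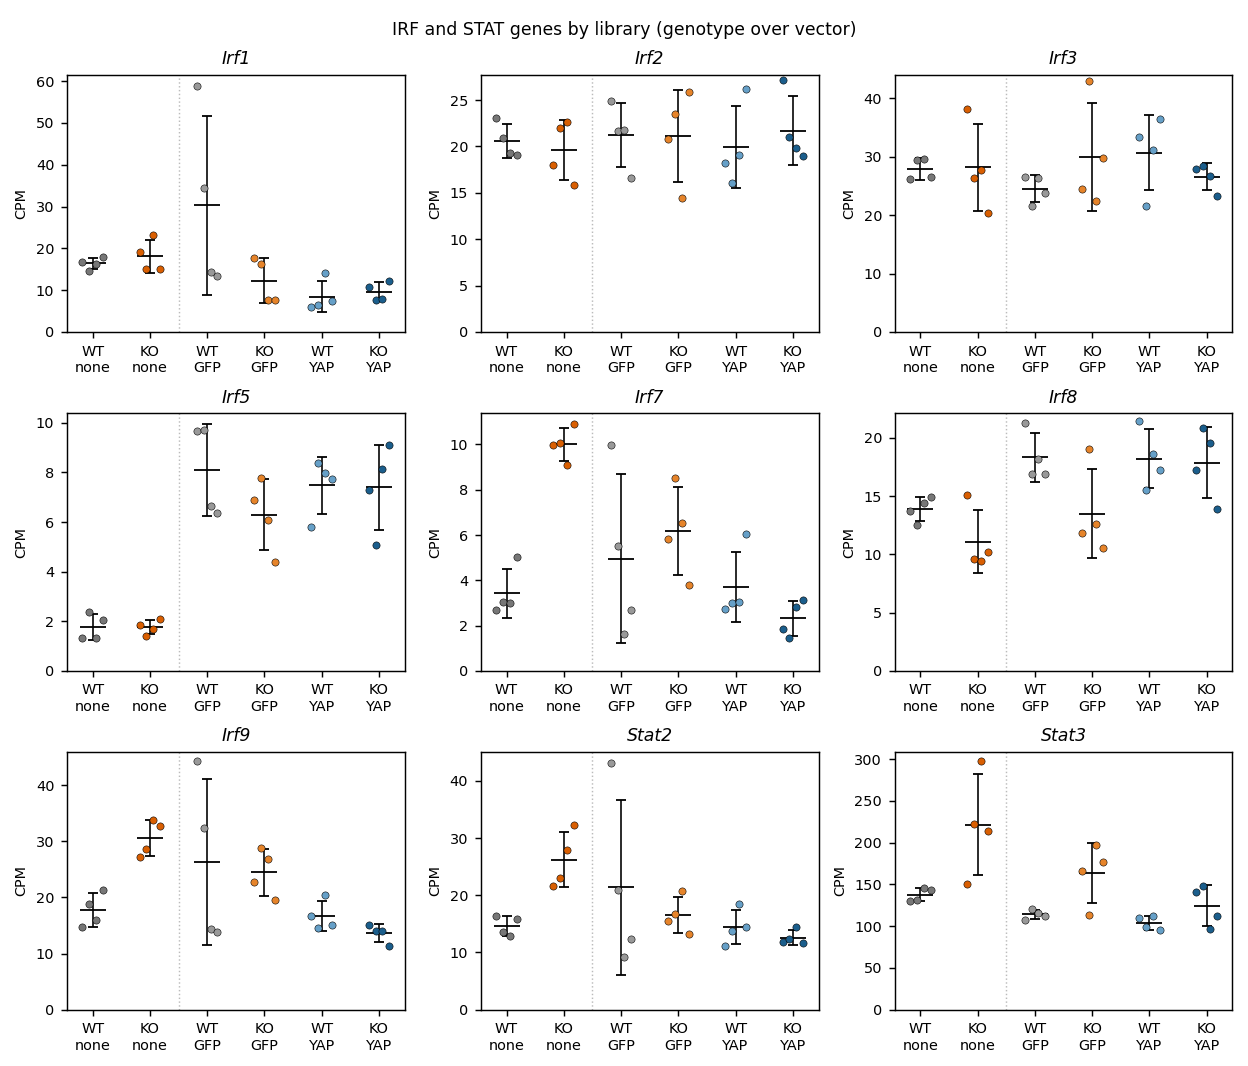
CPM (y axis) of each of the 9 genes in the 24 libraries (points, replicates 1 to 4 from left to right), by genotype over vector (x axis), with the mean and SD of 4 libraries as bars. The uninjected groups, left of the dotted line, were normalized apart from the injected ones. Irf7, Irf9, Stat2 and Stat3 lie higher in all uninjected Xinβ KO libraries than in any uninjected WT library, and WT/GFP replicates 1 and 2 lie above the other WT/GFP libraries in Irf1, Irf5, Irf7, Irf9 and Stat2.

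In uninjected Xinβ KO hearts, 3 of the 9 genes rose and none fell, and the 3 were Irf9 and Stat2, which encode parts of ISGF3, and Irf7, the amplifier of the interferon response. The called share of all 15598 tested genes was 6.69%, and 3.23% were called higher (limma on log2(CPM + 1), adjusted p under 0.05 over all tested genes). The median log2 fold change was 0.12 over the 9 genes and 0.00 over all tested genes. Values of Xinβ KO and WT libraries did not overlap for 4 of the 9 genes, all 4 higher, where 8.01% of all tested genes were higher without overlap.

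In uninjected WT replicates 1 to 4 Irf7 had 2.68, 3.02, 2.99 and 5.03 CPM, compared with 9.96, 10.1, 9.09 and 10.9 CPM in those of Xinβ KO. Every Xinβ KO library was above every WT library, and the Xinβ KO libraries lay close together. The means were 10.0 ± 0.736 CPM in Xinβ KO and 3.43 ± 1.08 CPM in WT libraries (SD, n = 4), a log2 fold change of 1.34 (SE 0.17, limma adjusted p = 0.0035), and the call held in all 8 fits that left out a library.

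Irf9, the DNA-binding part of ISGF3, was at 14.7, 18.9, 16.01 and 21.4 CPM in WT replicates and at 27.2, 28.6, 33.9 and 32.8 CPM in Xinβ KO replicates. The lowest Xinβ KO library was above the highest WT library. The log2 fold change was 0.76 (SE 0.14, limma adjusted p = 0.015), and adjusted p rose to 0.054 without WT replicate 1 and 0.059 without WT replicate 3.

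Stat2, which gives ISGF3 its activation domain, was at 16.4, 13.6, 12.8 and 15.9 CPM in WT replicates and at 21.7, 23.0, 27.9 and 32.2 CPM in Xinβ KO replicates. Here too the groups did not overlap. The log2 fold change was 0.79 (SE 0.15, limma adjusted p = 0.016), and adjusted p rose to 0.062 without WT replicate 2 and 0.064 without WT replicate 3.

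Stat3 was at 130, 132, 146 and 144 CPM in WT replicates and at 150, 223, 298 and 214.1 CPM in Xinβ KO replicates. The groups did not overlap, yet Xinβ KO replicate 1 lay only just above the WT libraries while replicate 3 lay far above them. The log2 fold change of 0.64 (SE 0.18) did not pass over all tested genes (limma adjusted p = 0.069). It passed without Xinβ KO replicate 1 (0.81, limma adjusted p = 0.0081) and in DESeq2 on the recovered reads (0.69, adjusted p = 0.0078).

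The other 5 genes were not called. Irf8, a factor of myeloid cells, was at 13.7, 12.5, 14.4 and 14.9 CPM in WT replicates and at 15.1, 9.59, 9.44 and 10.2 CPM in Xinβ KO replicates. Replicate 1 of Xinβ KO was the highest of the 8 libraries and the other 3 were the lowest (log2 fold change -0.32, SE 0.16, limma adjusted p = 0.27). Without Xinβ KO replicate 1 the log2 fold change was -0.47 (limma adjusted p = 0.019). In bulk tissue fewer cells of a type and less RNA per cell cannot be told apart. Irf1 had means of 18.1 ± 3.91 CPM in Xinβ KO and 16.4 ± 1.37 CPM in WT libraries (SD, n = 4), and its log2 fold change was 0.12 (SE 0.15). Irf2, Irf3 and Irf5 had log2 fold changes of -0.08, -0.02 and 0.01, each smaller than its SE of 0.14 to 0.17, with overlapping groups.

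Among the injected libraries, WT/GFP replicates 1 and 2 stood apart from replicates 3 and 4 in 5 of the members. Irf1 was at 58.9 and 34.4 CPM in these 2 libraries against 14.4 and 13.4 in the others of the group. Irf9 was at 44.2 and 32.5 against 14.4 and 13.9 CPM, and Stat2 at 43.2 and 20.9 against 9.30 and 12.3 CPM. Irf7 showed the same split, with 9.98 and 5.52 against 1.63 and 2.68 CPM. The summed level of the 39 listed interferon targets was 1833 and 830.2 CPM in these libraries and 413.8 and 468.5 CPM in the other 2. Macrophage markers summed to 188 and 153 against 126 and 135 CPM, and neutrophil markers to 12.6 and 16.01 against 7.18 and 9.26 CPM. Irf5 was at 9.68 and 9.71 against 6.63 and 6.36 CPM. Stat3, in contrast, varied little in WT/GFP, at 107, 121, 116 and 113 CPM. The depth of replicates 1 and 2, 16209797 and 17059980 reads, was within the range of the injected libraries. By the labels these 2 libraries carry consecutive codes, the lowest of the injected libraries, and what the codes stand for is not stated. What set the libraries apart was not tested. An alternative without them, chosen after the members' values were seen, is given beside the injected results. Leaving them out lowers the WT/GFP mean and spread of the 5 split members by the choice itself. Its p-values and calls for these members are therefore descriptions and not tests.

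Of the 9 genes, 1 rose in Xinβ KO/GFP compared with WT/GFP, namely Stat3, where 13.7% of all 14597 tested genes were called and 6.43% were called higher. The median log2 fold change was -0.02 over the members and -0.01 over all tested genes. No member had groups without overlap, a state that 15.3% of all tested genes reached in this comparison.

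In replicates 1 to 4 of Xinβ KO/GFP, Stat3 reached 166, 113, 197 and 177 CPM, against the WT/GFP values given above. Of the Xinβ KO/GFP libraries 3 were above all WT/GFP libraries, and replicate 2 was within their range. The log2 fold change was 0.49 (SE 0.15, limma adjusted p = 0.044). The estimate without WT/GFP replicates 1 and 2 was 0.48 with a limma adjusted p of 0.18, and of the 16 fits that left out a single library the call held in 4, those without Xinβ KO/GFP replicate 2 or Xinβ KO/YAP replicates 1, 2 or 3, with limma adjusted p up to 0.12 in the others. On plain CPM, without TMM scaling, limma adjusted p was 0.13.

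The 4 Xinβ KO/GFP libraries had 5.84, 8.5, 6.55 and 3.8 CPM of Irf7, all above WT/GFP replicates 3 and 4 and below WT/GFP replicate 1. Its log2 fold change was 0.44 (SE 0.36, limma adjusted p = 0.46) with all libraries and 1.16 (SE 0.31, limma adjusted p = 0.043) without WT/GFP replicates 1 and 2. For Irf9 these libraries had 22.7, 28.9, 26.9 and 19.6 CPM, between the high and low libraries of WT/GFP. It moved from 0.06 (limma adjusted p = 0.92) with all libraries to 0.74 (SE 0.17, limma adjusted p = 0.025) without the 2, a fit that called 2 members and 5.32% of all tested genes. Stat2 (15.6, 16.8, 20.8 and 13.2 CPM with the knockout) changed sign, from -0.14 (SE 0.32) to 0.57 (SE 0.20, limma adjusted p = 0.12). The size of the genotype difference of these 3 members in GFP-injected hearts thus depended on whether the 2 WT/GFP libraries were included. Since the 2 were left out for their values in these members, the p-values without them are descriptions.

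The Xinβ KO/GFP libraries had 17.8, 16.2, 7.55 and 7.71 CPM of Irf1. Its log2 fold change of -1.08 (SE 0.40, limma adjusted p = 0.089) shrank to -0.26 (SE 0.36) without WT/GFP replicates 1 and 2. It passed without WT/GFP replicate 3 (-1.33, limma adjusted p = 0.049) or 4 (-1.36, limma adjusted p = 0.044) and in DESeq2 (-1.30, adjusted p = 0.046). Irf8 was at 21.3, 16.9, 18.2 and 16.9 CPM in WT/GFP, while the knockout libraries had 11.9, 19.0, 12.6 and 10.5 CPM, so that 3 of 4 Xinβ KO/GFP libraries were below every WT/GFP library. The log2 fold change of Irf8 was -0.44 (SE 0.17, limma adjusted p = 0.09), and it was -0.39 without WT/GFP replicates 1 and 2 and -0.61 (limma adjusted p = 0.008) without Xinβ KO/GFP replicate 2. Irf2, Irf3 and Irf5 had log2 fold changes of -0.02, 0.24 and -0.32 with all libraries and 0.11, 0.20 and -0.06 without WT/GFP replicates 1 and 2, none of them called.

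**Figure D3:**
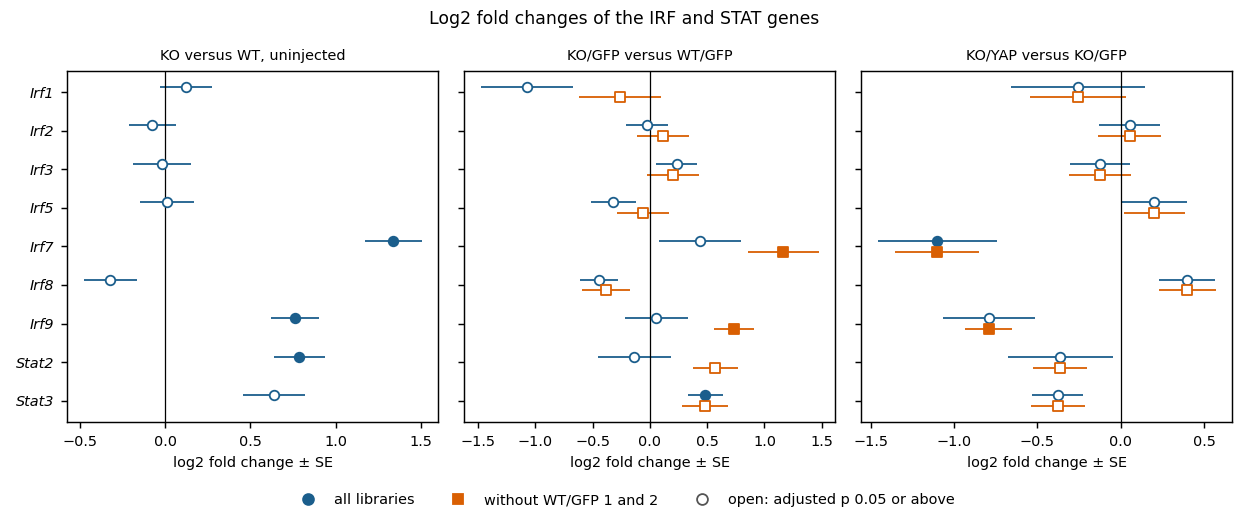
Log2 fold changes with their SE (x axis) of the 9 genes (y axis) in 3 comparisons, from limma. Filled symbols passed an adjusted p of 0.05. Orange squares leave out WT/GFP replicates 1 and 2, a choice made after the values were seen. This brings Irf7 to 1.16 and Irf9 to 0.74 in Xinβ KO/GFP against WT/GFP and leaves Stat3 near 0.48.

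In Xinβ KO hearts given YAP S127A, Irf7 was lower than in Xinβ KO hearts given GFP, the only 1 of the 9 genes called, where 14.8% of all tested genes were called and 6.92% were called lower. The comparison shares the Xinβ KO/GFP libraries with the one above, so the 2 are not independent. The median log2 fold change was -0.26 over the members and 0.01 over all tested genes. For 2 members, Irf7 and Irf9, all Xinβ KO/YAP libraries were below all Xinβ KO/GFP libraries, which 8.52% of all tested genes were.

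Irf7 was at 1.86, 1.46, 2.80 and 3.15 CPM in Xinβ KO/YAP, against 3.8 to 8.5 CPM with GFP. The means were 2.32 ± 0.788 and 6.17 ± 1.94 CPM (SD, n = 4), and Irf7 fell by 1.10 on the log2 scale (SE 0.36, limma adjusted p = 0.049). This call lies at the threshold. Adjusted p was 0.05 in edgeR, 0.053 in limma without the trend, 0.051 with Ddx3y as a covariate and 0.065 in limma on plain CPM, the call held in 4 of the 16 fits that left out a library (WT/GFP replicate 1 or 3, Xinβ KO/GFP replicate 4 or WT/YAP replicate 4), and without WT/GFP replicates 1 and 2, which lowers the pooled spread, limma adjusted p was 0.011.

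Irf9 was at 15.2, 14.1, 14.01 and 11.4 CPM in Xinβ KO/YAP, a narrow range below the 19.6 to 28.9 CPM of Xinβ KO/GFP. Its log2 fold change was -0.79 (SE 0.28, limma adjusted p = 0.065), and -0.79 (SE 0.14, limma adjusted p = 0.0025) without WT/GFP replicates 1 and 2. Stat2 was at 11.8, 12.3, 14.5 and 11.6 CPM in Xinβ KO/YAP and overlapped Xinβ KO/GFP (log2 fold change -0.36, SE 0.32, limma adjusted p = 0.47). Stat3 was at 141, 149, 96.7 and 113 CPM in Xinβ KO/YAP, with a log2 fold change of -0.38 (SE 0.15, limma adjusted p = 0.11) that passed without Xinβ KO/GFP replicate 2 (-0.54, limma adjusted p = 0.0076). Irf8 was at 17.2, 20.8, 19.6 and 13.9 CPM in Xinβ KO/YAP (log2 fold change 0.40, SE 0.17, limma adjusted p = 0.12), and it passed without Xinβ KO/GFP replicate 2 (0.57, limma adjusted p = 0.014). Irf1, Irf2, Irf3 and Irf5 had log2 fold changes of -0.26, 0.05, -0.13 and 0.20, with overlapping groups.

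The remaining comparisons called none of the 9 genes with limma. Of all tested genes 0.0206% were called between Xinβ KO/YAP and WT/GFP, 0.0411% between Xinβ KO/YAP and WT/YAP and 0.0% between WT/YAP and WT/GFP, the last with 1011 genes at an unadjusted p under 0.05, 0 calls in edgeR and 11 in DESeq2. Between WT/YAP and WT/GFP the largest member difference was in Irf1 (log2 fold change -1.55, SE 0.40, limma adjusted p = 0.59), which was at 6.03, 6.39, 14.03 and 7.29 CPM in WT/YAP. Its log2 fold change was -0.73 (SE 0.36) without WT/GFP replicates 1 and 2. Irf1 was also the only member whose Xinβ KO/YAP libraries, at 10.8, 7.54, 7.89 and 12.2 CPM, were all below the WT/GFP libraries (log2 fold change -1.33, limma adjusted p = 0.68, and -0.52 without WT/GFP replicates 1 and 2), where 2.32% of all tested genes lay lower without overlap. Between Xinβ KO/YAP and WT/YAP the member with the smallest p was Stat3, with means of 125 and 104 CPM (log2 fold change 0.24, SE 0.15, limma adjusted p = 0.55).

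Whether the change with YAP S127A differed between Xinβ KO and WT hearts was tested as an interaction, for which 7.56% of all tested genes and 0 of the 9 members were called. The interaction was -0.93 for Irf7 (SE 0.51, limma adjusted p = 0.28) and -0.32 for Irf9 (SE 0.39, limma adjusted p = 0.66). Without WT/GFP replicates 1 and 2 it was -1.65 for Irf7 (SE 0.40, limma adjusted p = 0.039) and -1.003 for Irf9 (SE 0.22, limma adjusted p = 0.027), and 2 members and 3.14% of all tested genes were called. These 2 libraries were left out for their values in these members, so the 2 calls are descriptions and not tests. The interaction of Stat3 was -0.24 in both fits.

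By mean CPM, the injected groups ranked WT/GFP, Xinβ KO/GFP, WT/YAP and Xinβ KO/YAP from high to low for Irf9 and Stat2, and Xinβ KO/GFP, WT/GFP, WT/YAP and Xinβ KO/YAP for Irf7. For Stat3 the order was Xinβ KO/GFP, Xinβ KO/YAP, WT/GFP and WT/YAP, and for Irf8 it was WT/GFP, WT/YAP, Xinβ KO/YAP and Xinβ KO/GFP. For all 9 genes the libraries of neighbouring groups in these orders overlapped. The order of Irf1 began with WT/GFP, at 30.3 ± 21.4 CPM (SD, n = 4), and ended with WT/YAP, at 8.44 ± 3.77 CPM. The place of WT/GFP turned on its replicates 1 and 2 for Irf2, Irf5, Irf7, Irf8, Irf9 and Stat2, and not for Irf1, Irf3 or Stat3. Its mean without replicate 1 was 20.3 CPM for Irf9, below Xinβ KO/GFP (24.5), and 14.2 CPM for Stat2, below Xinβ KO/GFP (16.6) and WT/YAP (14.5). With both left out it was 14.2 CPM for Irf9, above Xinβ KO/YAP alone, and 10.8 for Stat2 and 2.16 for Irf7, in last place. Irf8 in WT/GFP, at 17.5 CPM, was then above Xinβ KO/GFP alone, and Irf1, at 13.9 CPM, stayed first. Irf5 in WT/GFP, at 6.49 CPM, was then also above Xinβ KO/GFP alone, and Irf2, at 19.2 CPM, was in last place.

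The other parts of these pathways were counted from lists of genes chosen for their roles, with earlier results of these data known. Of all tested genes, 6.69% were called between uninjected groups and 14.8% between Xinβ KO/YAP and Xinβ KO/GFP. Between Xinβ KO/GFP and WT/GFP 13.7% were called, and 5.32% without WT/GFP replicates 1 and 2. Small counts in the lists and markers below can lie near or under these shares. Of the 12 ligands on the list, 3 were listed in each table (Lif, Clcf1 and Ctf1) and none was called. Ifnb1, Ifng, Ifnl2, Ifnl3, Il6 and Osm were among the 9 that were not listed.

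Of the 12 receptor genes, 2 rose and 1 fell in uninjected Xinβ KO hearts. Osmr, the oncostatin M receptor, had means of 38.0 ± 14.5 CPM in Xinβ KO and 16.6 ± 1.05 CPM in WT libraries (log2 fold change 1.08, limma adjusted p = 0.027), and Lifr, the receptor of leukemia inhibitory factor, 51.3 and 22.7 CPM (1.07, limma adjusted p = 0.035). Il10ra, the interleukin-10 receptor of immune cells, was at 0.777 and 2.51 CPM (-0.98, limma adjusted p = 0.0042). Between Xinβ KO/GFP and WT/GFP, 3 receptors rose, Osmr (1.35), Ifnlr1 (0.93) and Ifngr1 (0.49), and Il10ra fell by 1.06 on the log2 scale. The same 3, Osmr (-1.31), Ifnlr1 (-0.92) and Ifngr1 (-0.51), were lower in Xinβ KO/YAP than in Xinβ KO/GFP. The type I interferon receptor genes Ifnar1 and Ifnar2 and the gp130 gene Il6st were called in none of these 3 comparisons. When WT/GFP replicates 1 and 2 were left out, 1 receptor rose and 0 fell in Xinβ KO/GFP against WT/GFP, and 3 were again lower in Xinβ KO/YAP against Xinβ KO/GFP.

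None of the 4 JAK kinase genes was called in uninjected hearts. Jak2 rose in Xinβ KO/GFP (40.1 against 27.4 CPM, log2 fold change 0.51, limma adjusted p = 0.038), and Jak3 was lower in Xinβ KO/YAP than in Xinβ KO/GFP (35.5 against 49.8 CPM, -0.48, limma adjusted p = 0.011). Of 15 tested sensors and adaptors, Dhx58, an interferon-induced RNA sensor, rose in uninjected Xinβ KO hearts (2.40 against 0.841 CPM, 0.87, limma adjusted p = 0.025) and Cgas, the sensor of cytosolic DNA, fell (1.23 against 3.39 CPM, -1.04, limma adjusted p = 0.034). Cgas was lower in Xinβ KO/GFP as well (-0.79, limma adjusted p = 0.04), and no sensor was called in Xinβ KO/YAP against Xinβ KO/GFP. Of 14 tested inhibitors, 2 rose in uninjected Xinβ KO hearts, Usp18, which blocks the type I interferon receptor (8.57 against 2.64 CPM, log2 fold change 1.41, limma adjusted p = 0.003), and Socs3, which blocks gp130 signaling (7.28 against 3.85 CPM, 0.74, limma adjusted p = 0.048). Of 15 tested in injected hearts, Socs3 alone rose in Xinβ KO/GFP (1.09), and both were lower in Xinβ KO/YAP than in Xinβ KO/GFP (Usp18 -1.25, Socs3 -0.98). Without WT/GFP replicates 1 and 2, 0 kinases, 1 sensor and 2 inhibitors were higher and none of them lower in Xinβ KO/GFP against WT/GFP, and 2 sensors were lower in Xinβ KO/YAP against Xinβ KO/GFP.

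Of 39 tested interferon targets, 19 rose and 0 fell in uninjected Xinβ KO hearts, with a median log2 fold change of 0.60. The 4 with the smallest p were Ifit1 (log2 fold change 1.34), Rtp4 (1.47), Ifi27l2a (1.90) and Oas1a (1.78), each with a limma adjusted p of 0.0027 to 0.0035. The summed level of all 39 was 476 to 526 CPM in WT and 624 to 863 CPM in Xinβ KO libraries. Of 35 targets tested between Xinβ KO/GFP and WT/GFP, 1 rose (Ifi27, 0.56) with a list median of -0.20. Without WT/GFP replicates 1 and 2, 7 rose with a median of 0.50. In Xinβ KO/YAP against Xinβ KO/GFP, 5 of 35 targets were lower and 0 higher, Oas1a (-1.74), Ifi27l2a (-1.61), Ifit1 (-1.62), Ifi44 (-1.51) and Ifi27 (-0.54), with a list median of -0.48. Without WT/GFP replicates 1 and 2, which enter that fit only through the spread, 12 were lower.

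Of 19 tested STAT3 targets, 11 rose and 0 fell in uninjected Xinβ KO hearts, with a median log2 fold change of 1.08. Osmr and Socs3 stand in this list as well as among receptors and inhibitors. The 4 with the smallest p were Lcn2, which encodes an iron-binding acute phase protein (2.32, limma adjusted p = 0.0014), the metallothionein genes Mt2 (2.95) and Mt1 (1.53), and the kinase gene Pim3 (1.52). In Xinβ KO/GFP against WT/GFP, 9 of 17 tested targets rose with a median of 1.09. The smallest p were those of Mt2 (2.61), Mt1 (1.5), Pim3 (1.53), Lrg1 (1.51) and Cebpd (1.57). In Xinβ KO/YAP against Xinβ KO/GFP, 8 were lower, Mt2 (-3.02) the most, and the immediate early gene Fos was higher (3.02, limma adjusted p = 0.0035). The summed level of the 19 listed targets was 271 to 341 CPM in uninjected WT and 430 to 688 in uninjected Xinβ KO libraries, and, by injected group, 330 to 448 (WT/GFP), 546 to 955 (Xinβ KO/GFP), 346.9 to 445.5 (WT/YAP) and 412 to 491 (Xinβ KO/YAP). Without WT/GFP replicates 1 and 2, 8 rose in Xinβ KO/GFP against WT/GFP, and 7 were lower and 1 higher in Xinβ KO/YAP against Xinβ KO/GFP.

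**Figure D4:**
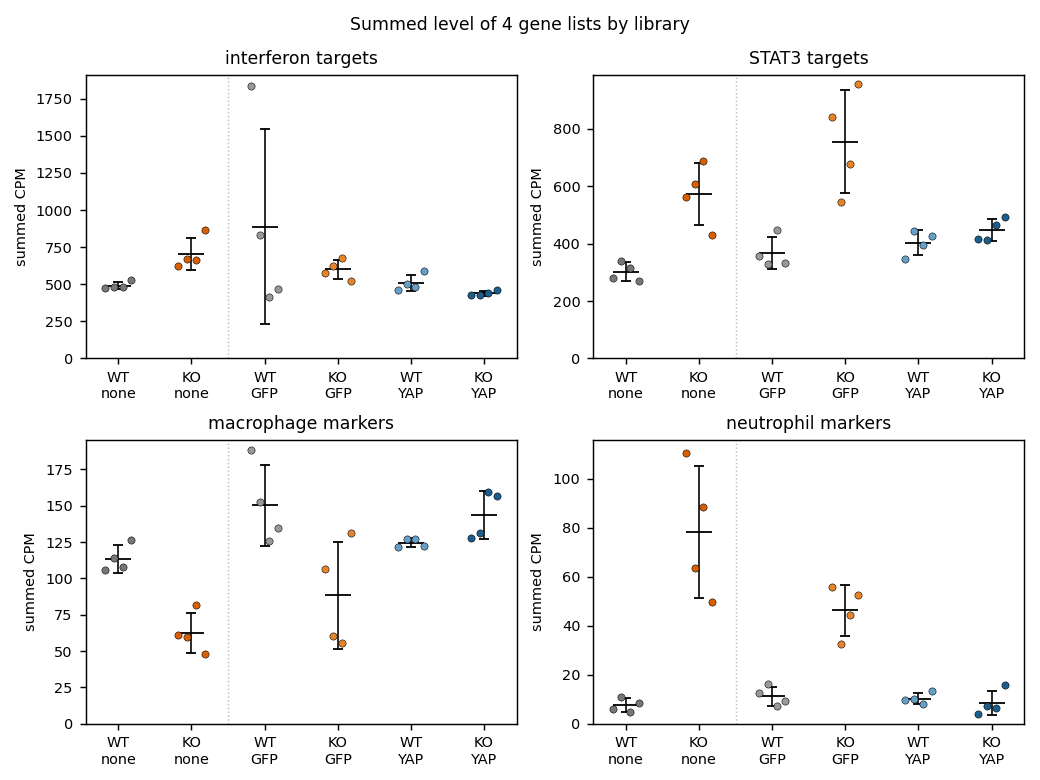
Summed CPM (y axis) of 4 gene lists in the 24 libraries (points), by genotype over vector (x axis), with the mean and SD of 4 libraries as bars. Interferon targets reach 1833 CPM in WT/GFP replicate 1. Neutrophil markers lie higher in every uninjected Xinβ KO and Xinβ KO/GFP library than in any other, STAT3 targets mostly higher and macrophage markers mostly lower.

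Markers of other cell types moved in the same comparisons. In uninjected Xinβ KO hearts 7 of 10 tested macrophage markers were lower, and their summed level was 47.7 to 81.4 CPM against 106 to 126 CPM in WT libraries. In Xinβ KO/GFP 7 of 12 were lower and Lyve1, a marker of resident macrophages and lymphatic vessels, was higher (summed level 55.7 to 131 CPM against 126 to 188 CPM in WT/GFP). With WT/GFP replicates 1 and 2 left out, 4 of 12 were lower and 0 higher. Compared with Xinβ KO/GFP, 8 of 12 were higher in Xinβ KO/YAP (128 to 159 CPM). Neutrophil markers moved the other way, with 6 of 6 tested higher in uninjected Xinβ KO hearts (49.7 to 111 CPM against 4.65 to 11.0 CPM), 4 of 5 higher in Xinβ KO/GFP against WT/GFP and 4 of 5 lower in Xinβ KO/YAP against Xinβ KO/GFP. No listed macrophage or neutrophil marker was at 0 throughout a group, while the neutrophil markers Ly6g, Mpo, Elane and Camp were not among the listed genes. Fibroblast markers summed to 5146 to 5380 CPM in uninjected WT and 2525 to 3869 CPM in uninjected Xinβ KO libraries, with 4 of 8 lower, and 6 of 8 were lower in Xinβ KO/GFP against WT/GFP and 6 of 8 higher in Xinβ KO/YAP against Xinβ KO/GFP. Leaving out WT/GFP replicates 1 and 2 gave 5 of 8 fibroblast markers lower and 4 of 5 neutrophil markers higher in Xinβ KO/GFP against WT/GFP. Of 8 endothelial markers 1 was higher and 1 lower in uninjected Xinβ KO hearts, 1 higher and 3 lower in Xinβ KO/GFP against WT/GFP, and 2 higher and 2 lower in Xinβ KO/YAP against Xinβ KO/GFP. Of 2 listed dendritic cell markers Clec9a was called higher between Xinβ KO/GFP and WT/GFP (log2 fold change 0.57) and lower between Xinβ KO/YAP and Xinβ KO/GFP (-0.78), where Irf8 had -0.44 and 0.40. The former call was lost without WT/GFP replicates 1 and 2, which left 0 of the 2 markers called. The tested lymphocyte marker Cd79b was lower in uninjected Xinβ KO hearts (-1.05). The part of these cells in the levels of Irf5, Irf7, Irf8, Stat3 and the pathway lists was not tested. Irf8 was highest of the uninjected Xinβ KO libraries in replicate 1 (15.1 CPM), whose macrophage markers summed to 61.2 CPM, within the range of its group. In Xinβ KO/GFP, Irf8 was highest in replicate 2 (19.0 CPM), with macrophage markers at 60.0 CPM, also within its group. These 2 libraries had the largest column sums of the uninjected and the injected libraries, 1084066 and 1134439, so TMM scaling raised their values the most. They were also highest of their groups in Irf3 (38.2 and 43.0 CPM) and lowest in Stat3 (150 and 113 CPM). The part of the scaling in these values was not tested.

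**Figure D5:**
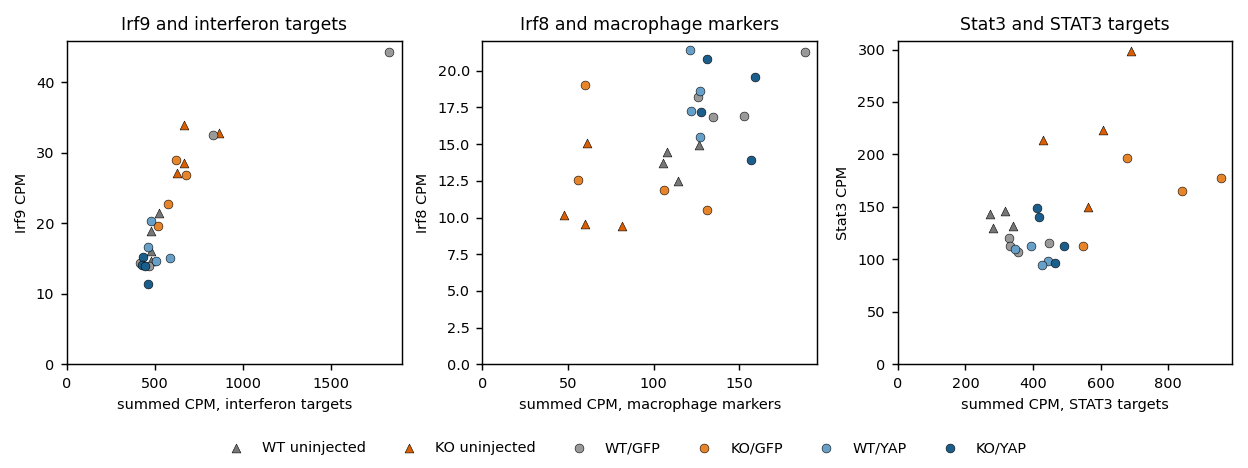
CPM of Irf9, Irf8 and Stat3 (y axes) against the summed CPM of interferon targets, macrophage markers and STAT3 targets (x axes) in the 24 libraries, with triangles for uninjected and circles for injected hearts. Irf9 lies highest in WT/GFP replicate 1, at 44.2 CPM and a target sum of 1833, and the highest sum of STAT3 targets, 955 CPM, is in a Xinβ KO/GFP library.

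For each member the most alike genes were found by Pearson's correlation of log2(CPM + 1) over the 24 libraries, after the mean of each table was subtracted, among 13734 genes tested in both tables. The points share library, depth and group, and the correlations are a description. Irf7 was most like Usp18 (r = 0.945), Ifitm3, which encodes an interferon-induced membrane protein (0.945), and the class I antigen gene H2-D1 (0.924). Irf9 was most like Iigp1 (0.922), Oasl2 (0.918) and Irgm1 (0.896), and Stat2 like Xaf1 (0.912), Oasl2 (0.909) and Trim30a (0.898). These neighbours of Irf9 and Stat2 are known interferon-stimulated genes, and all 5 are on the list of interferon targets. Irf1 was most like Tapbpl (0.788), Gbp7 (0.777) and Gbp5 (0.776), the latter pair guanylate-binding proteins induced by interferon gamma. Stat3 was most like genes of another kind, Ednra, the endothelin receptor A (0.941), Plin4, a lipid droplet protein (0.913), and Acacb, an enzyme of fatty acid metabolism (0.903). Irf8 was most like Smarcb1 (0.883), Rcn3 (0.861) and Praf2 (0.861), none of them on the macrophage list. Irf2 was most like Safb2 (0.858), Zfp35 and A630052C17Rik, Irf3 like Ccdc134 (0.873), Ccdc12 and Bloc1s1, and Irf5 like 6720489N17Rik (0.792) and Alkbh2 (0.691).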

How the data were processed

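RNA of 24 libraries was analysed, 4 in each of 6 groups given by the labels. The authors used cutadapt 2.3 for trimming, HISAT2 2.1.0 for alignment to GRCm38, StringTie 1.3.4 for transcripts and its prepDE script for gene counts, which estimates reads from coverage, and edgeR 3.26.1 for CPM. The deposited values are a normalized signal, CPM whose columns sum to between 942566 and 1134439, and were taken as CPM on TMM-scaled library sizes. Dividing each library's values by the worth of a single read made 100.0% of them whole (tolerance 0.1), so read estimates could be recovered for edgeR, which called 956 genes between uninjected groups, 1904 in Xinβ KO/GFP against WT/GFP and 2103 in Xinβ KO/YAP against Xinβ KO/GFP, and for DESeq2. No column of values was left out. Symbols came from GENCODE M21 for 15655 of 15667 and 15314 of 15327 identifiers.

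Genes above 1 CPM in at least 4 of 8 uninjected or 8 of 16 injected libraries were tested, 15598 and 14597 genes, which included all 9 members. Groups were compared with limma 3.58.1 on log2(CPM + 1) with its trend setting, and p-values were adjusted by Benjamini-Hochberg over all tested genes, with 1 model for the injected libraries and genes called under 0.05. A fold change on this scale understates that of low genes. The study itself used Fisher's exact test. Alternatives were a pseudocount of 0.1, no filter, mean CPM above 1, quantile normalization, plain CPM, edgeR 4.0.16 and DESeq2 1.42.0, limma without the trend, a fit on the compared groups only, Ddx3y as a covariate, a replicate block, leaving out each library and, added after the values were seen, leaving out WT/GFP replicates 1 and 2 together. Replicate numbers were not treated as pairs. The scripts were tested on simulated data.

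The members and the gene lists were chosen with earlier results of these data known. All 9 members were named. From each list other than the cell type markers, up to 4 called genes with the smallest p (5 where 2 had equal adjusted p) in each of the 3 main comparisons were named, and any gene of the receptor and JAK kinase lists. For each member the 3 most alike genes were named. Some genes that this rule covers are not reported here. Fos, Lyve1, Clec9a, Cd79b, Ddx3y and the genes overlapping a member were named outside this rule, after their values were seen. R 4.3.3, Python 3.11.15 and matplotlib 3.10.9 were used. Correlations, counts of libraries and sequence windows are descriptions without a test.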

Additional observations from a re-analysis of the deposited data

Results flagged for a closer look

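Within the 54 groups of 4 values tested, 4 had a highest library whose gap to the next was large for the range of its group (Dixon's criterion at the 95% level), where chance gives about 2.7. Irf1 was at 14.03 CPM in WT/YAP replicate 3, against 6.033 to 7.285 CPM in the other 3 libraries. Irf7 was at 5.027 CPM in uninjected WT replicate 4, against 2.679 to 3.02 CPM, and at 6.038 CPM in WT/YAP replicate 4, against 2.747 to 3.062 CPM. Irf8 was at 15.11 CPM in uninjected Xinβ KO replicate 1, against 9.441 to 10.18 CPM. What set these libraries apart was not tested. The split of WT/GFP into 2 high and 2 low libraries leaves no large gap at 1 end and so meets no such criterion.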

How the results depend on the processing

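Of 1665 member log2 fold changes recomputed under the alternatives, 1535 kept their direction and side of the threshold, 40 lost a call, 21 gained 1 and 69 reversed. None of the called values reversed, and the largest value that reversed was 0.661 in size with all libraries. Of the 9 members, 3 were called between uninjected Xinβ KO and WT hearts, and 1 to 5 when single libraries were left out (1 without WT replicate 3, where 410 of all genes were called, and 5 without Xinβ KO replicate 1, where 1761 were). In Xinβ KO/GFP against WT/GFP, 1 was called, with 0 after quantile normalization, without the trend and in the fit on the compared groups only, 2 in DESeq2 and without WT/GFP replicates 1 and 2, and 0 to 2 when single libraries were left out. In Xinβ KO/YAP against Xinβ KO/GFP, 1 was called, with 0 in edgeR, without the trend and with Ddx3y as a covariate, 2 in DESeq2, in the fit on the compared groups only and without WT/GFP replicates 1 and 2, and 0 to 2 when single libraries were left out. The interaction called 0, and 2 without those 2 libraries. On plain CPM the count stayed at 1 in both comparisons but the gene changed, since Stat3 (0.375, limma adjusted p = 0.13) and Irf7 (-0.996, limma adjusted p = 0.065) lost their calls, and Irf8 was called lower in Xinβ KO/GFP against WT/GFP (-0.545, limma adjusted p = 0.026) and higher in Xinβ KO/YAP against Xinβ KO/GFP (0.52, limma adjusted p = 0.03). The cause of these changes was not tested. With a replicate block the calls went from 3 to 2 in uninjected hearts and from 1 to 0 in each of the GFP and YAP comparisons of Xinβ KO hearts. Same-numbered libraries correlated between -0.191 and 0.137 in their deviations from the group means. Whether any libraries shared a litter or a day was not tested.

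Over all genes, 1044 were called between uninjected groups, against 1955 in DESeq2, 1927 with Ddx3y as a covariate, 201 higher and 184 lower with the replicate block, 379 without WT replicate 1 and 2098 without Xinβ KO replicate 4. On plain CPM the median of all genes moved to -0.12 and the split from 504 higher and 540 lower to 353 and 1241, with 3 members still called. In Xinβ KO/GFP against WT/GFP the 1993 calls became 930 on the compared groups only and 776 without WT/GFP replicates 1 and 2, and on plain CPM the split went from 939 higher and 1054 lower to 590 and 1759. In Xinβ KO/YAP against Xinβ KO/GFP the 2156 calls became 1208 on the compared groups only, and the split went from 1146 higher and 1010 lower to 2156 and 591 on plain CPM. The interaction had 1104 calls (707 with the replicate block and 459 without WT/GFP replicates 1 and 2), and its split went from 554 and 550 to 884 and 345 on plain CPM. Depth limits Irf5 and Irf7 most, with as few as 29 and 25 reads in a library.

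The sign reversed without WT/GFP replicates 1 and 2 for Irf2 (0.114) and Stat2 (0.571) in Xinβ KO/GFP against WT/GFP, for Irf5 (0.139), Irf7 (0.060), Irf8 (0.011) and Stat2 (0.208) in Xinβ KO/YAP against WT/GFP and for Irf2 (0.039), Irf5 (0.168), Irf7 (0.549), Irf8 (0.042), Irf9 (0.211) and Stat2 (0.384) in WT/YAP against WT/GFP. The sign reversed in DESeq2 for Irf3 (0.024) and Irf5 (-0.007) in uninjected Xinβ KO against WT, for Irf9 (-0.095) in Xinβ KO/GFP against WT/GFP and for Stat2 (0.156) in the interaction. The sign reversed in edgeR for Irf3 (0.014) and Irf5 (-0.014) in uninjected Xinβ KO against WT, for Irf9 (-0.094) in Xinβ KO/GFP against WT/GFP and for Stat2 (0.156) in the interaction. The sign reversed on plain CPM for Irf1 (-0.013) and Irf5 (-0.077) in uninjected Xinβ KO against WT, for Irf9 (-0.051) in Xinβ KO/GFP against WT/GFP, for Irf3 (0.001) in Xinβ KO/YAP against Xinβ KO/GFP and for Stat2 (0.071) in the interaction. The sign reversed with Ddx3y as a covariate for Irf2 (0.061), Irf3 (0.097) and Irf5 (-0.064) in uninjected Xinβ KO against WT. The sign reversed after quantile normalization for Irf5 (0.022) in Xinβ KO/YAP against WT/YAP. Leaving out single libraries gave estimates on both sides of 0 for Irf1 (-0.002 to 0.199), Irf2 (-0.147 to 0.016), Irf3 (-0.171 to 0.12) and Irf5 (-0.070 to 0.112) in uninjected Xinβ KO against WT, for Irf2 (-0.13 to 0.142), Irf9 (-0.178 to 0.356) and Stat2 (-0.431 to 0.269) in Xinβ KO/GFP against WT/GFP, for Irf2 (-0.112 to 0.156) and Irf3 (-0.243 to 0.059) in Xinβ KO/YAP against Xinβ KO/GFP, for Irf2 (-0.077 to 0.108), Irf5 (-0.215 to 0.029) and Irf8 (-0.118 to 0.065) in Xinβ KO/YAP against WT/GFP, for Irf5 (-0.183 to 0.013), Irf7 (-0.494 to 0.193), Irf8 (-0.089 to 0.059) and Stat2 (-0.618 to 0.082) in WT/YAP against WT/GFP, for Irf5 (-0.13 to 0.118) and Irf8 (-0.106 to 0.077) in Xinβ KO/YAP against WT/YAP and for Irf2 (-0.015 to 0.285) and Stat2 (-0.445 to 0.255) in the interaction.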
